A study of Ictidomys tridecemlineatus with 15 samples.

Results

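The unfolded protein response and the integrated stress response were followed through 10 named genes: the stress sensors Eif2ak3, Ern1 and Atf6, the transcription factors Atf4, Ddit3 and Xbp1, the chaperone Hspa5, and the targets Ppp1r15a, Asns and Trib3. A gene was taken when its symbol was one of the names of a unit in the count table. A unit is a stretch of the genome that is transcribed as 1 gene or as several overlapping genes. The authors extended its 3' end where transcribed segments, merged over the states, ran past the annotated gene. The paper reports that transcription in torpor often ran on past gene ends. The part of such reads in each unit was not tested. Of the 10 genes, 6 had a unit of their own, 2 lay in a unit merged with a neighbour (Atf4 with Mief1, Trib3 with Rbck1) and 2, Atf6 and Asns, had no unit and are not analysed here. These 8 units are among 6324 in all, 4705 of them named for 1 gene and 1619 merged. Reads of a merged unit cannot be divided between its genes, and its values are given for the unit as a whole.

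Global run-on sequencing (GRO-seq) lets RNA polymerases that are already engaged on DNA extend their transcripts in isolated nuclei. It thus counts polymerases engaged at collection, whatever the store of finished RNA, and not how fast they moved in the animal. Livers came from 14 laboratory-housed female 13-lined ground squirrels, each library from 1 animal: 3 summer active (SA, homeothermic before the hibernation season), 3 interbout aroused (IBA, rewarmed between bouts of torpor), 3 entering torpor (Ent), 3 in early torpor (ET) and 2 in late torpor (LT). Body temperature was taken by an implanted telemeter or logger, or by rectal probe, and the paper names no other treatment. Winter states were assigned from body temperature and time. SA and IBA are called warm below, and ET and LT cold. The IBA, ET and LT animals came from 3 different collection seasons, 1 for each state. SA replicate 1 and Ent replicates 1 and 2 were collected in the season of LT, and the other SA and Ent animals in that of IBA. ET and its season cannot be told apart. SA replicate 1 was the only warm animal from a season that also held cold ones, so warm and cold largely follow season as well.

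When misfolded proteins build up in the endoplasmic reticulum (ER), the sensors PERK (Eif2ak3), IRE1 (Ern1) and ATF6 are released from the chaperone BiP (Hspa5). PERK phosphorylates eIF2, which slows translation in general but favors that of ATF4, whose targets include CHOP (Ddit3), Trib3, the asparagine synthetase gene Asns and the eIF2 phosphatase subunit GADD34 (Ppp1r15a). IRE1 splices the Xbp1 mRNA into the form that encodes an active transcription factor for chaperone and secretory genes. Splicing, phosphorylation and protein levels were not measured, and the liver is known for a heavy load of secreted proteins.

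Library totals on units ran from 3713883 to 8884763 reads, and the smallest count of any of the 8 units in any library was 31. Values per library are CPM, with library sizes adjusted by TMM, so each is a share of the transcription counted in that library. Differences are log2 fold changes from an edgeR quasi-likelihood fit to all 14 libraries, with p-values adjusted over the 6324 units by the Benjamini-Hochberg method. A unit was called at an adjusted p of 0.001 or less, and 0.05 served as a second level. The comparisons share libraries and are not independent of each other. Where libraries of compared states are said below not to overlap, the share of all units for which this holds was not counted. SA replicate 2 was the highest SA library for Eif2ak3 and Hspa5 and the lowest for Xbp1, and its rank correlation with them over all units was 0.912 and 0.919, against 0.948 between those 2. Of the liver cell markers with a unit of their own, the 6 hepatocyte genes (Apob, Ttr, Tf, Cps1, Hnf4a and Fgb) summed to between 8720 and 20200 CPM in the warm libraries and to between 3690 and 6990 CPM in the cold ones. The 4 markers of other cells (Pecam1, Kdr, Rgs5 and Sox9) summed to between 205 and 274 CPM in the warm libraries and to between 125 and 214 CPM in the cold ones. None of the Kupffer cell and leukocyte markers had a unit of its own. The part of cell composition in the results below was not tested, and in whole liver fewer cells of a type and less transcription per cell cannot be told apart.

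In the cold livers Ddit3 and Ppp1r15a held a larger share of the counted reads and Xbp1 a smaller one. The sensor gene Ern1 had between 204 and 263 CPM in the cold against 156 to 333 CPM in the warm. From warm to cold, Ppp1r15a rose 4.67-fold, Ddit3 rose 2.35-fold and Xbp1 fell 3.77-fold. These 3 of the 8 units were called, where 36.2% of all 6324 units were called in the same comparison, 18.6% as higher in the cold and 17.6% as lower. At the 0.05 level 7 of the 8 units passed, against 64.5% of all units, with 5 higher in the cold and 2 lower, where the shares over all units were 30.8% and 33.7%. The median log2 difference was 0.73 over the 8 units and -0.04 over all units. Tested among the 5 states together, the same 3 units were called, beside 25.2% of all units, and 7 of 8 passed 0.05, beside 61.9%. DESeq2 called 6 of the 8 units from warm to cold, and 3054 of all units.

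CPM hold no absolute amount of transcription. The paper recalls that liver transcription nearly stops at the low body temperature of torpor, and proposes that elongation there goes on very slowly. A rise in the cold is thus a rise in the share of counted reads. With uniquely mapped reads as the library size in place of the counted ones, the median log2 difference of all units from warm to cold went from -0.04 to 0.18, and the part of all calls that lay in the direction of the cold from 51.4% to 68.7%. The 8 units kept their signs, and 5 were called, beside 2457 of all 6324 units. Eif2ak3 no longer passed 0.05 (-0.49, adjusted p = 0.107). Relative to the median unit the changes of Ddit3 (1.28 in both) and Xbp1 (-1.87 in both) were the same to the second decimal, and that of Ppp1r15a was 2.27 and 2.25.

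**Figure D1:**
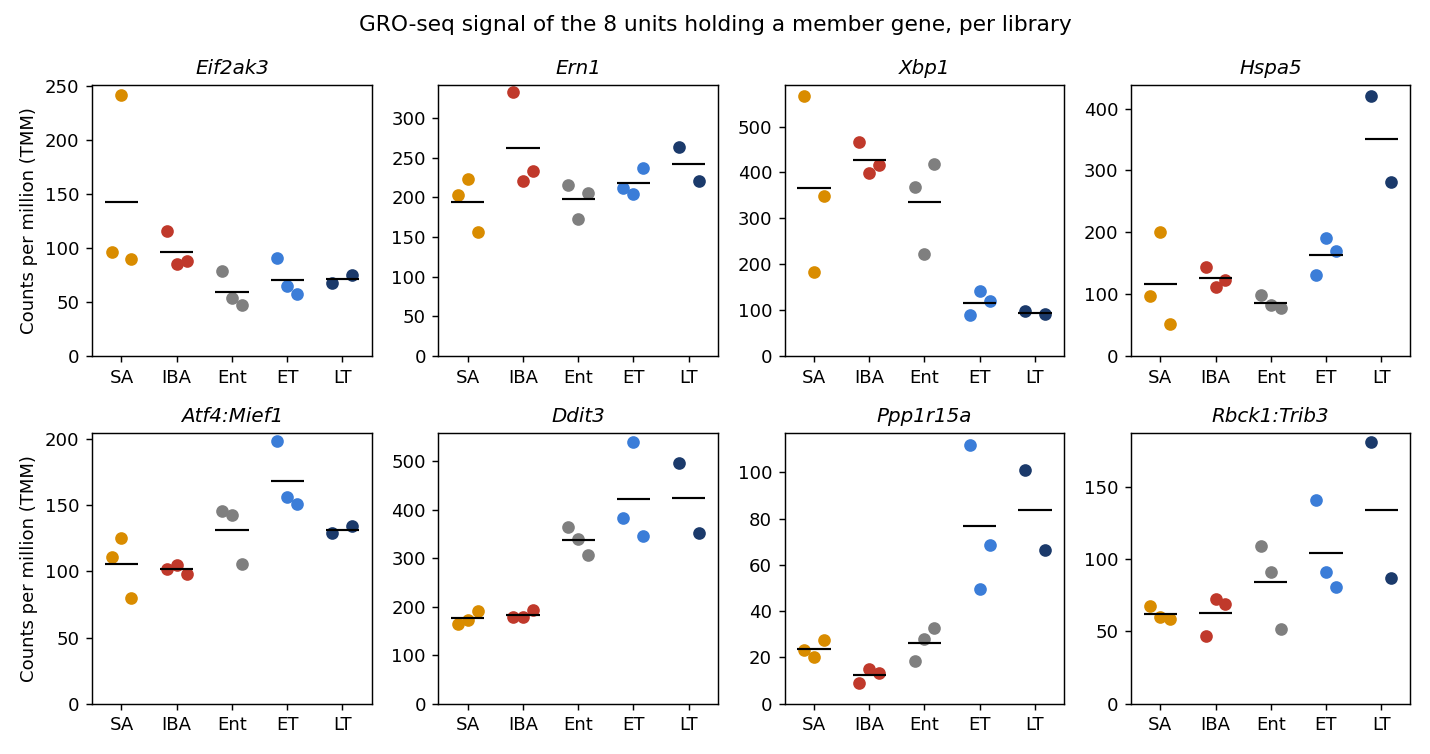
CPM after TMM scaling on a linear axis (y) in each library of the 5 states (x) for the 8 units; points are libraries and bars the means over 3 animals, or 2 in LT. All 5 cold libraries lie above all 6 warm ones for Ddit3, Ppp1r15a and both merged units and below them for Xbp1. How many of all units part in this way was not counted. The LT libraries of Hspa5 stand highest. SA replicate 2 (middle SA point) is the highest SA library for Eif2ak3 and Hspa5 and the lowest for Xbp1.

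Of the sensors, Eif2ak3 lies on the minus strand of Itri12 from 80398567 to 80444489 (HiC_Itri_2, the build of all positions here) and encodes PERK, the eIF2 kinase of the ER membrane. Its level was 96.4, 241 and 89.5 CPM in SA, 116, 84.7 and 87.5 in IBA, 78.1, 53.2 and 46.8 in Ent, 90.4, 64.4 and 57 in ET, and 67.7 and 74.8 in LT. SA replicate 2 was the highest of all libraries by far, and the Ent libraries all lay below all warm ones, whereas 1 of the 5 cold libraries lay within the warm range. Eif2ak3 was lower in the cold at the 0.05 level, with a log2 fold change of -0.72 ± 0.26 (SE; adjusted p = 0.03), and the value was -0.41 (adjusted p = 0.055) without SA replicate 2. It passed 0.05 in 11 of 18 alternatives, and the highest adjusted p among those that left out 1 library was 0.093, without LT replicate 1. It also passed only the 0.05 level among the 5 states (adjusted p = 0.037), and no step from one state to the next passed.

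Ern1, the gene of the kinase and endonuclease IRE1, covers 92216 nt on the plus strand of Itri7 (14489186 to 14581401). It was read at 203, 223 and 156 CPM in SA, 333, 221 and 233 in IBA, 215, 173 and 206 in Ent, 212, 204 and 237 in ET, and 263 and 221 in LT. All cold libraries lay inside the range of the warm ones. The warm to cold difference was 0.03 ± 0.13 on the log2 scale (SE; adjusted p = 0.875), and no comparison passed 0.05. IBA had the highest mean, with log2 differences of 0.44 ± 0.18 from SA (adjusted p = 0.178) and -0.41 ± 0.18 from IBA to Ent (adjusted p = 0.134).

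Xbp1, whose mRNA is the splicing substrate of IRE1, occupies 7683 nt on the plus strand of Itri2 (112975826 to 112983508). Its libraries gave 567, 184 and 349 CPM in SA, 467, 399 and 417 in IBA, 368, 223 and 419 in Ent, 88.4, 141 and 120 in ET, and 96.9 and 92.4 in LT. Every cold library was below every warm and every Ent library, and the lowest warm value was that of SA replicate 2. The fall from warm to cold was -1.92 ± 0.27 on the log2 scale (SE; adjusted p = 4.9e-05). From IBA to Ent the difference was -0.35 ± 0.33 (adjusted p = 0.502), and from Ent to ET it was -1.53 ± 0.34 (adjusted p = 0.0063), which passed 0.05 only. On the log2 scale the Ent mean had covered 11.4% of the way from warm to cold. Within the season of LT alone, the SA animal had 567 CPM, the Ent animals 368 and 223 CPM and the LT animals 96.9 and 92.4 CPM.

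Hspa5 (Itri3, 193572670 to 193584151, minus strand) encodes BiP, the Hsp70 chaperone of the ER lumen and a common readout of the unfolded protein response. It had 97.4, 200 and 52 CPM in SA, 144, 111 and 123 in IBA, 98.1, 81.8 and 78.3 in Ent, 131, 190 and 169 in ET, and 420 and 281 in LT. Both LT libraries were above the 12 others, and the ET libraries overlapped the warm ones. Warm to cold, Hspa5 differed by 0.98 ± 0.27 (log2, SE; adjusted p = 0.0063), past 0.05 but not 0.001. Without SA replicate 2 the difference was 1.30 ± 0.19 (adjusted p = 9.6e-05), past 0.001. The ET to LT difference was 1.11 ± 0.39 (adjusted p = 0.388; unadjusted p = 0.015), and that of LT to IBA was -1.48 ± 0.40 (adjusted p = 0.0084). Without LT replicate 1, the highest library, the latter was -1.16 (adjusted p = 0.086). Thus Xbp1 and Hspa5 differed in opposite directions between warm and cold.

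On the eIF2 side, Atf4 lies in a unit with Mief1, a mitochondrial dynamics gene, over 23296 nt on the minus strand of Itri4 (9097972 to 9121267). The unit gave 111, 125 and 80.1 CPM in SA, 102, 105 and 98 in IBA, 146, 143 and 106 in Ent, 199, 156 and 151 in ET, and 129 and 134 in LT. All cold libraries were above all warm ones, though the gap between 125 and 129 CPM was small. The warm to cold difference of 0.53 ± 0.13 (log2, SE) passed 0.05 (adjusted p = 0.0037) and not 0.001. ET had the highest mean, 169 ± 26.1 CPM (SD, n = 3), and the difference from ET to LT, -0.36 ± 0.20, did not pass (adjusted p = 0.677).

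Ddit3, the gene of the transcription factor CHOP, spans 9035 nt on the plus strand of Itri4 (57201522 to 57210556). Its libraries gave 165, 172 and 192 CPM in SA, 178, 179 and 193 in IBA, 365, 340 and 307 in Ent, 382, 540 and 345 in ET, and 497 and 351 in LT. The 6 warm libraries lay close together, and all Ent and cold libraries were above them. The rise from warm to cold was 1.23 ± 0.13 on the log2 scale (SE; adjusted p = 5e-06). Most of it was present at entrance: the Ent mean had covered 74.7% of the way on the log2 scale, with an IBA to Ent difference of 0.88 ± 0.17 (adjusted p = 0.0077) and an Ent to ET difference of 0.32 ± 0.17 (adjusted p = 0.179). Animals of the LT season had 165 CPM in SA, 365 and 340 CPM in Ent and 497 and 351 CPM in LT, and those of the IBA season had 172 and 192 CPM in SA, 178, 179 and 193 CPM in IBA and 307 CPM in Ent. Within each of these seasons the Ent libraries were therefore above the warm ones. The nearest unit upstream of Ddit3 on its strand, Dctn2, ends 9964 nt away. Dctn2, a dynactin subunit gene, differed by 0.14 ± 0.10 from warm to cold (log2, SE; adjusted p = 0.222).

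Ppp1r15a, whose product GADD34 directs protein phosphatase 1 to eIF2, is the shortest member unit at 7012 nt (Itri16, 21292979 to 21299990, plus strand). Its mean CPM was the lowest of the member units in SA, IBA and Ent, whereas in ET and LT that of Eif2ak3 was lower. Ppp1r15a was read at 23.4, 20.1 and 27.7 CPM in SA, 8.81, 14.8 and 13.3 in IBA, 18.6, 27.8 and 32.8 in Ent, 112, 49.5 and 68.8 in ET, and 101 and 66.4 in LT. Every cold library was above every other library, the SA and IBA libraries did not overlap, and Ent lay with SA. Warm to cold the rise was 2.22 ± 0.24 on the log2 scale (SE; adjusted p = 6.4e-06). From SA to IBA the difference of -0.94 ± 0.33 did not pass (adjusted p = 0.123). The steps from IBA to Ent, 1.09 ± 0.33 (adjusted p = 0.042), and from Ent to ET, 1.55 ± 0.32 (adjusted p = 0.004), passed 0.05 only, and the first of them was lost at 0.05 when any one of 5 of its 6 libraries was left out, with adjusted p between 0.066 and 0.150. Without Ent replicate 1 it was 1.29 (adjusted p = 0.03). The next unit downstream on the same strand, Nucb1, begins 6565 nt away and differed by 0.39 ± 0.17 (adjusted p = 0.057), and the unit 3184 nt upstream on the other strand, that of Bcat2 and Plekha4, was lower in the cold by -0.84 ± 0.20 (adjusted p = 0.0026).

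Trib3, a pseudokinase gene induced by ATF4 and CHOP, shares a unit with the ubiquitin ligase gene Rbck1 on the minus strand of Itri5 (169626403 to 169651152). The unit had 67.5, 59.7 and 58.6 CPM in SA, 46.6, 72.5 and 68.8 in IBA, 109, 91.5 and 52 in Ent, 141, 90.9 and 81.1 in ET, and 181 and 87.3 in LT. All cold libraries exceeded all warm ones, and the Ent libraries spanned both ranges. The warm to cold difference was 0.92 ± 0.24 (log2, SE; adjusted p = 0.0045), past 0.05 only. LT replicate 1 was the highest library, and without it the LT to IBA difference went from -1.10 (adjusted p = 0.021) to -0.48 (adjusted p = 0.371), and the warm to cold one to 0.61 (adjusted p = 0.046). Tbc1d20, 1826 nt downstream on the other strand, was also higher in the cold at the 0.05 level (0.49 ± 0.11, adjusted p = 0.0017), with no overlap between warm and cold libraries.

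**Figure D2:**
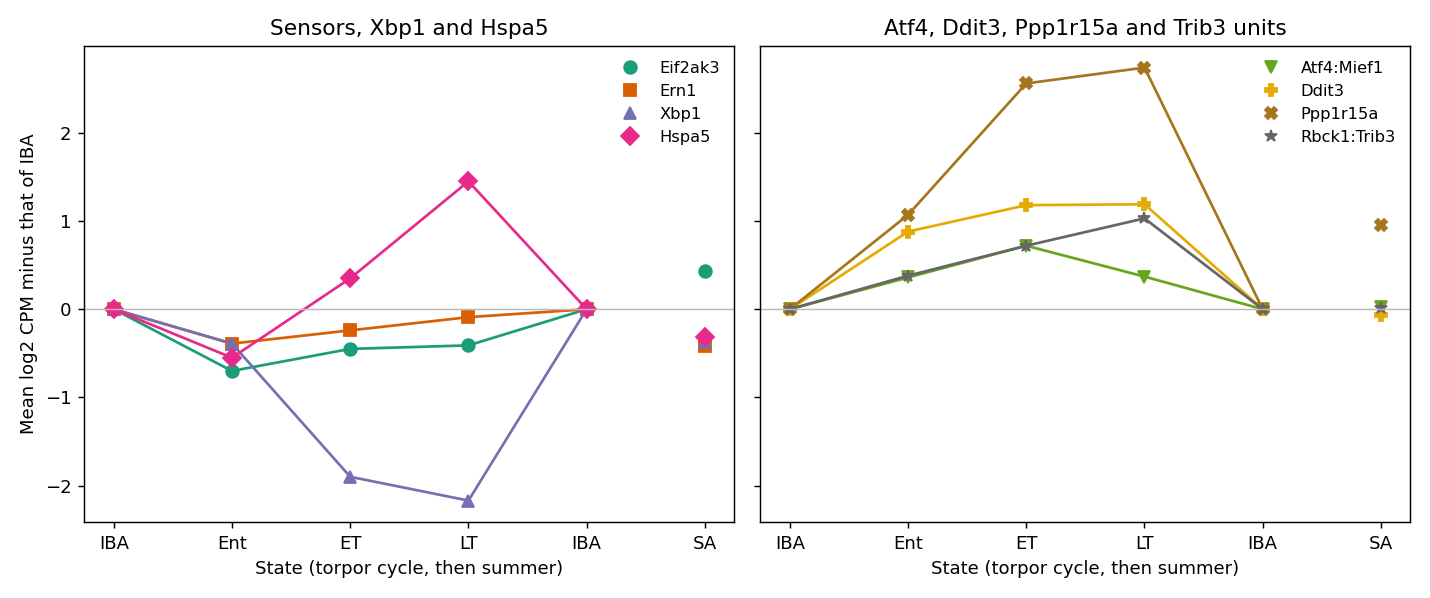
Mean log2 CPM of each unit minus its IBA mean (y), along the torpor cycle with IBA repeated at its end and SA as a separate point (x); lines join the means of 3 animals, or 2 in LT, and errors are in the text. Ddit3 is already apart from IBA at Ent, the means of Xbp1 and Ppp1r15a differ more from Ent to ET than from IBA to Ent, and Hspa5 is lowest at Ent and highest at LT.

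The steps of the torpor cycle, and the seasonal step from summer to the warm winter state, were then compared one by one. From SA to IBA none of the 8 units was called and none passed 0.05, beside 0.0158% and 5.19% of all units. At an unadjusted p of 0.05 or less there were 2 of the 8, Ern1 and Ppp1r15a, in edgeR, beside 21.8% of all units. DESeq2 called none of the 8, beside 221 of all 6324 units. From IBA to Ent none was called, beside 0.0316% of all units, and Ddit3 and Ppp1r15a passed 0.05, both higher in Ent, beside 15.9%. In this step 3 of the 8 had an unadjusted p of 0.05 or less, beside 32.5% of all units. DESeq2 called 1 of the 8, Ddit3, beside 447 of all units. From Ent to ET again none was called, beside 2.02% of all units, and Xbp1 and Ppp1r15a passed 0.05 in opposite directions, beside 28.6%. Here 3 of the 8 had an unadjusted p of 0.05 or less, beside 40.5% of all units. DESeq2 called 2 of the 8, Xbp1 and Ppp1r15a, beside 937 of all units. From ET to LT none of the 8 was called or passed 0.05, beside 0% and 0.269% of all units. Only 1 of the 8 had an unadjusted p of 0.05 or less (Hspa5), beside 8.65% of all units. DESeq2 called none of the 8, beside 37 of all units.

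Arousal, from LT to IBA, was the single step with called units: Xbp1 was 4.52-fold higher in IBA, with a log2 fold change of 2.18 ± 0.41 (SE; adjusted p = 0.00091), Ddit3 fell by 1.21 ± 0.19 (adjusted p = 0.00029) and Ppp1r15a fell by 2.76 ± 0.36 (adjusted p = 7.9e-05). These 3 of 8 stand beside 17.3% of all units. At 0.05 the count was 5, with Hspa5 and the Rbck1:Trib3 unit lower in IBA, beside 49.8%. No library of LT overlapped IBA for any of these 5 units. The same held for the Atf4:Mief1 unit (adjusted p = 0.135) and Eif2ak3 (adjusted p = 0.383), which did not pass. The share of all units that part in this way between 2 LT and 3 IBA libraries was not counted, so the separation is a description only. LT had only 2 libraries, and the 3 calls became 0 without LT replicate 1 and 1, that of Ppp1r15a, without any one IBA library. With season as a covariate Ppp1r15a alone was called (-3.03, adjusted p = 0.00098), while Ddit3 was at -1.18 (adjusted p = 0.007) and Xbp1 at 2.47 (adjusted p = 0.004). The value for the Rbck1:Trib3 unit then was -0.52 (adjusted p = 0.412) and that for Hspa5 -1.55 (adjusted p = 0.057). How many of all units were called without a library or with the season covariate is not given here. Whether the lost calls are particular to these genes was not tested.

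Per kilobase of unit length, which allows genes to be set against each other, the order of the 6 single-gene units differed between IBA and LT. In IBA, Xbp1 had 55.7 ± 4.6 CPM per kb (SD, n = 3), Ddit3 20.3 ± 0.945 and Hspa5 11 ± 1.46. Ern1 (2.85 ± 0.666), Eif2ak3 (2.09 ± 0.373) and Ppp1r15a (1.75 ± 0.446) followed, each with an SD range that overlapped that of its neighbour in this order. In LT, Ddit3 came first at 46.9 ± 11.5 CPM per kb (SD, n = 2), with an SD range that overlapped that of Hspa5 at 30.5 ± 8.58, followed by Xbp1 at 12.3 ± 0.418 and Ppp1r15a at 12 ± 3.53, whose SD ranges also overlapped. Ern1 (2.63 ± 0.327) and Eif2ak3 (1.55 ± 0.109), the sensor genes, had the least signal per kb in LT. Xbp1 thus went from above Ddit3 and Hspa5 in the aroused liver to below both in late torpor.

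The wider pathway was read from 4 lists of genes with a unit of their own, 55 in all, apart from the members. From warm to cold 4 of the 55 rose and 8 fell at 0.001, beside the 18.6% and 17.6% of all units. At 0.05, 12 were higher and 20 lower, beside 30.8% and 33.7%. The same shares of all units stand beside the counts of each list below, which rest on few genes.

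Among 11 sensors and eIF2 regulators, Creb3l2, an ER-anchored transcription factor, and Eif2ak1, the heme-regulated eIF2 kinase, fell, Mbtps1 rose, and 8 were not called. The 0.05 level was passed by 1 gene as higher and 5 as lower, and 5 did not pass. The list's median difference was -0.31. Mbtps1, the site-1 protease that cuts ATF6 in the Golgi, had 96.8 to 109 CPM in SA, 102 to 121 in IBA, 117 to 131 in Ent, 143 to 223 in ET and 201 to 229 in LT. Its rise was 0.93 ± 0.12 (log2, SE; adjusted p = 1.8e-05). Creb3l2 had 342 ± 76.4 CPM in SA, 273 ± 63.8 CPM in IBA and 112 ± 26.9 CPM in ET (SD over 3 animals each) and 136 ± 15.1 CPM in LT (SD over 2), and fell by 1.31 ± 0.19 from warm to cold (adjusted p = 5.7e-05). The log2 change of Eif2ak1 was -0.59 ± 0.09 (adjusted p = 0.00011), but -0.36 with an adjusted p of 0.006 when libraries were scaled to their mapped reads.

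Among 15 target genes of ATF4 and CHOP, 1 rose, 5 fell and 9 were not called, and the median was -0.76. At 0.05 there were 4 higher and 8 lower, and 3 did not pass. Atf5, a transcription factor gene related to Atf4, rose by 2.18 ± 0.17 (log2, SE; adjusted p = 6e-07). Its mean level went from 111 ± 23.9 CPM in SA and 214 ± 64.9 CPM in IBA to 678 ± 84.1 CPM in Ent and 802 ± 121 CPM in ET (SD over 3 animals), and LT had 609 ± 22.4 CPM (SD over 2), with no overlap between IBA and Ent. Like Ddit3, Atf5 was therefore already high in Ent (IBA to Ent 1.66 ± 0.23, adjusted p = 0.0025). The largest falls among the called genes were those of Ddit4, which encodes the mTORC1 inhibitor REDD1, with -3.35 ± 0.65 (adjusted p = 0.00062), Nupr1, a stress-induced nuclear protein gene, with -3.16 ± 0.21 (adjusted p = 3.1e-07), and Slc3a2, the heavy chain of amino acid transporters, with -1.96 ± 0.19 (adjusted p = 2.6e-06). Ddit4 varied widely in SA, where its libraries had 505, 175 and 63.6 CPM, IBA had 20.5 to 39.3 CPM, and every cold library had 13.3 CPM or less. It was lower in IBA than in SA at the 0.05 level (-2.96 ± 0.78, adjusted p = 0.048), and its LT to IBA difference did not pass (1.94 ± 0.93, adjusted p = 0.102). Fgf21, a hormone gene whose difference of -2.61 ± 0.73 exceeded that of Slc3a2, passed 0.05 only (adjusted p = 0.0076) and is named after its value was seen. Psat1, likewise named after its value was seen, rose by 2.10 ± 0.51 (adjusted p = 0.003), also past 0.05 only. Nupr1 had 151 to 218 CPM in SA, 60.2 to 87.4 CPM in IBA and 9.13 to 20.8 CPM in the cold libraries. The 2 warm states thus differed for Nupr1 at the 0.05 level, lower in IBA than in SA (-1.26 ± 0.25, adjusted p = 0.011). Atf5 was higher in IBA than in SA at that level (0.95 ± 0.23, adjusted p = 0.03). The other called genes, named after their values were seen, were Lars, a leucyl-tRNA synthetase gene (-1.93 ± 0.15, adjusted p = 6.3e-07), and Cth, cystathionine gamma-lyase (-1.18 ± 0.17, adjusted p = 6.7e-05). Known targets of ATF4 and CHOP thus differed in both directions in the cold, as Atf5 and Ddit3 rose while Nupr1, Slc3a2 and Ddit4 fell.

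Of 13 ER chaperones and folding enzymes, Pdia3, a disulfide isomerase for glycoproteins, was the one called. It had 158 to 281 CPM in SA, 166 to 207 in IBA, 169 to 208 in Ent, 305 to 445 in ET and 309 to 340 in LT, and rose by 0.76 ± 0.15 (log2, SE; adjusted p = 0.00076). At 0.05 there were 2 higher and 3 lower, 8 did not pass, and the median was 0.12. Of 16 genes of ER-associated degradation and translocation, Derl1 (derlin-1, of the retrotranslocation channel) rose by 1.14 ± 0.12 (adjusted p = 4.3e-06) and Erlec1, an ER lectin, fell by 1.19 ± 0.22 (adjusted p = 0.00046). The mean of Derl1 went from 94.2 ± 3.52 CPM in IBA to 179 ± 32.8 CPM in Ent and 219 ± 22.7 CPM in ET (SD over 3 animals), and its IBA to Ent difference of 0.93 ± 0.16 passed 0.05 (adjusted p = 0.0043). The median of this list was 0.23, with 5 genes higher and 4 lower at 0.05. Erlec1 was not called when libraries were scaled to mapped reads (-0.95, adjusted p = 0.0027) or without SA replicate 2 (adjusted p = 0.0011).

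**Figure D3:**
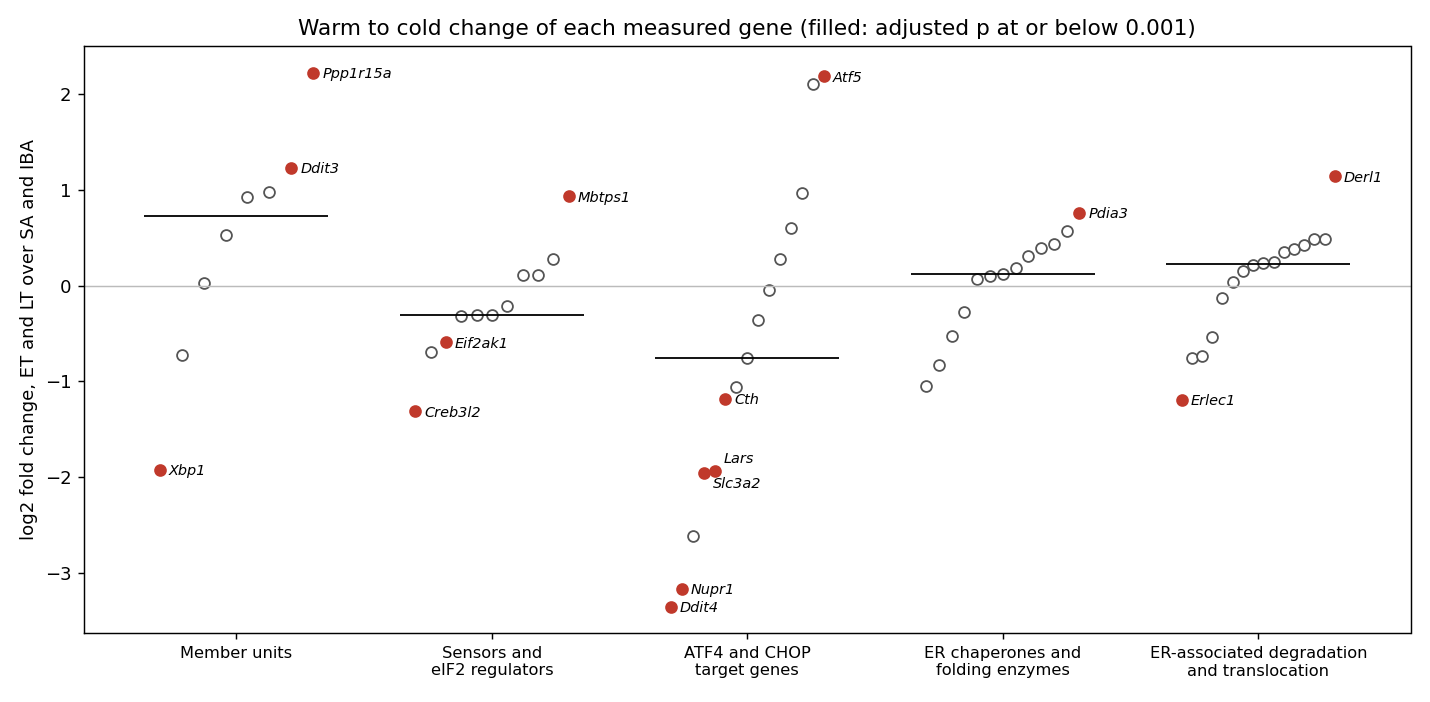
Log2 fold change of ET and LT over SA and IBA (y) for the 8 member units and for the genes of 4 pathway lists with a unit of their own (x); each point is a unit, filled and named where its adjusted p was 0.001 or less, and the bar is the median of its list. The medians are 0.73, -0.31, -0.76, 0.12 and 0.23 from left to right, and every list holds units on both sides of 0.

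The single-gene units whose log2 CPM ran most like that of each member over the 14 libraries were picked by Pearson's r, given as a description. For Ddit3 they were Sephs1, a selenophosphate synthetase homolog gene (r = 0.972), and Slc25a16 (r = 0.953), and for Ppp1r15a they were Pxmp2, a peroxisomal membrane protein gene (r = 0.966), and CUNH16orf72 (r = 0.963). For Xbp1 they were the activin receptor gene Acvr1 (r = 0.982) and G6pc, the catalytic subunit of glucose-6-phosphatase (r = 0.98), whose mean fell from 1520 CPM in IBA to 123 CPM in LT (warm to cold -3.21, adjusted p = 1.3e-05). Hspa5 ran most like CUNH5orf34 (r = 0.888) and Dnm1l, a fission GTPase gene (r = 0.877). Eif2ak3 ran most like E4f1 (r = 0.907) and the ER chaperone gene Hyou1 (r = 0.906), which is also on the chaperone list and had 28.2 to 115 CPM in SA, with a median of 36.6 CPM, against 29 to 29.6 CPM in LT. For Ern1 they were Etnk1 (r = 0.849) and Usp24 (r = 0.842). Points of such a correlation share libraries, states and depth.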

How the data were processed

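GRO-seq libraries from the livers of 14 squirrels in 5 states were analysed. LT replicate 2, whose library the authors judged to be of poor quality and left out, was not analysed here. The authors trimmed reads with cutadapt to at least 32 nt, mapped them with BWA to the HiC_Itri_2 genome, redefined gene bodies from the GRO-seq reads, removed the first 500 nt after each start site, merged overlapping genes and enumerated reads with featureCounts. What they deposited is a table of raw counts for each unit and library, without normalization. The strand setting of the counting is not given in the sources used here.

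Counts were fitted here in edgeR 4.0.16 (R 4.3.3; TMM, robust quasi-likelihood test, 1 mean per state), with Benjamini-Hochberg adjustment over all 6324 units and the study's threshold of 0.001. No unit was filtered out, and filterByExpr would remove 0. Log2 CPM used a prior count of 2. Ratios were tested for SA to IBA, IBA to Ent, Ent to ET, ET to LT, LT to IBA, warm to cold, and the 5 states together. Fold changes are the later state over the earlier. Depth was 3713883 to 8884763 counts per library, and precision is set by the few animals. The steps were tested on simulated data.

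The members and gene lists were chosen with earlier results of these data known. Named genes are all members with a unit, in each pathway list the 3 largest rises and 3 largest falls among units called from warm to cold, and for each member with its own unit the 2 single-gene units of highest Pearson r.

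Alternatives were DESeq2 1.42.0, edgeR's adjusted deviances, RLE size factors, uniquely mapped reads as library size, 10 or more counts in every library, the compared groups alone, a block for replicate number, a covariate for collection season, an adjusted p of 0.05, and each library left out in turn. Groups of 2 or 3 libraries allow no test for outlying libraries. Python 3.11.15, pandas 2.3.3, numpy 2.4.6 and matplotlib 3.10.9 were used for summaries. No sequence or genome was used here.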

Additional observations from a re-analysis of the deposited data

How the results depend on the processing

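The counts of member units called, of 8, depended on the tool and the threshold. DESeq2 called 5 among the 5 states against 3 in edgeR, 1 from IBA to Ent and 2 from Ent to ET against 0, and 6 from warm to cold against 3. At an adjusted p of 0.05 the counts were 7 among the 5 states and 7 from warm to cold, 2 in each of the steps to Ent and to ET, and 5 from LT to IBA. Over all units DESeq2 called 3164 among the 5 states against 1595, 221 against 1 from SA to IBA, 447 against 2 from IBA to Ent, 937 against 128 from Ent to ET, 37 against 0 from ET to LT and 2016 against 1097 from LT to IBA. Scaling to uniquely mapped reads called 5 from warm to cold, and season as a covariate called 1 from LT to IBA. With 1 library left out, the count from LT to IBA ranged from 0 to 4, that among the 5 states from 2 to 4 and that from warm to cold from 3 to 4, and where this left 1 LT library it was assumed to vary like the other groups. With the replicate block the counts were 2 among the 5 states, 2 from LT to IBA and 3 from warm to cold, as Xbp1 had an adjusted p of 0.0011 from LT to IBA. Replicate numbers do not pair animals here: deviations of same-numbered libraries from their state means correlated between -0.26 and 0.23 (median 0.04), and those of other pairs between -0.34 and 0.38 (median -0.01). Of 672 alternative values of single members, 646 kept their direction, or were not past 0.05, and kept their side of the 0.001 threshold, 15 lost a call, 11 gained one and 0 reversed. Season as a covariate could not be fitted for comparisons with ET. The causes were not tested. The 2 LT libraries limit every comparison with LT, and a difference under about the spread of 2 or 3 animals was not detectable.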
